A study of Mus musculus with 12 samples.

Results

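The 78 nuclear genes named for proteins of the mitochondrial ribosome were followed through H3K4me3, H3K4me1 and MLL4 peak lists of mouse embryonic fibroblasts. They are the protein-coding genes on chromosomes 1 to 19 and X whose symbol opens with Mrps or Mrpl and a number, 29 named for the small subunit and 49 for the large one, of 21631 protein-coding genes in RefSeq's GRCm38.p6 annotation. The choice used names and no measured value. The study profiled cultured fibroblasts labelled WT or fbxw7 KO by Cut & Run, in which an antibody directs a nuclease to cut free the chromatin it binds, and each of the 3 antibodies had 2 libraries per genotype, 12 in all. Both genotypes were grown in the same serum-containing medium. The labels give no strain, embryonic age, allele or clone, and leave unsaid if replicate libraries were made from different cultures, so every p-value below measures the spread between libraries, which may be technical.

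Mitochondria make the core membrane proteins of the respiratory chain on their own ribosome. Its RNAs come from mitochondrial DNA, while its proteins are encoded in the nucleus, translated in the cytosol and imported. The small subunit reads the messenger RNA and the large subunit forms the peptide bonds. Trimethylation of lysine 4 on histone H3 (H3K4me3) marks active promoters, and monomethylation (H3K4me1) marks enhancers and the flanks of promoters. MLL4 is a methyltransferase that places H3K4me1, and Fbxw7 is the substrate-binding subunit of an SCF ubiquitin ligase.

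Of the 78 genes, 69 had a promoter sequence in the RefSeq table. Promoters of 6 of them are shown because their genes stand for the patterns described below: a promoter shared by a pair of the genes (Mrps11 with Mrpl46), one without a knockout H3K4me3 peak (Mrps26), one whose start site lies inside the annotated gene (Mrpl22), genes holding both an ETS and a YY1 match whose place among other genes differed in opposite directions (Mrps27, Mrps18a), and one without a peak in 1 knockout library (Mrpl39). Each stretch is from GRCm38.p6, runs 5′ to 3′ on the gene's strand and ends 30 bases into the transcript. It opens 200 bases before the start site, or 30 bases inside the next gene where that is nearer. Capitals mark exact matches, on either strand, to the ETS word CCGGAAG, the YY1 word AAGATGGCG, the short Sp1 and TATA words given below, or the NRF1 palindrome, which is spelled by the capitals in the Mrpl39 sequence. No word contains another.
Mrps11, chr7:78783060-78783160, plus strand: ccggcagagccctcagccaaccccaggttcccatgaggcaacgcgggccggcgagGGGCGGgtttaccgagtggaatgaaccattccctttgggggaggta
Mrps26, chr2:130563557-130563786, plus strand: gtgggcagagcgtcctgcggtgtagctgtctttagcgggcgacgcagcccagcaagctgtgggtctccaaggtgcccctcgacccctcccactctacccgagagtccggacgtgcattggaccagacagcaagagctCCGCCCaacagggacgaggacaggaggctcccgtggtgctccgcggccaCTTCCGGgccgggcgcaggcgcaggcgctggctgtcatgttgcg
Mrpl22, chr11:58171464-58171693, plus strand: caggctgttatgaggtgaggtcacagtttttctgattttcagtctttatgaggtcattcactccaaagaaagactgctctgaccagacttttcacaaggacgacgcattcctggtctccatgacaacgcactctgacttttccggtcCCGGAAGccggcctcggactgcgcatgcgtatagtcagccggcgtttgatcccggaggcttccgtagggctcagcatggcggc
Mrps27, chr13:99344649-99344815, plus strand: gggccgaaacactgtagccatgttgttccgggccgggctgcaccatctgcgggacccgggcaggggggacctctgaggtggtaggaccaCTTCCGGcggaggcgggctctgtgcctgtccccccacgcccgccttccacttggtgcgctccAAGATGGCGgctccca
Mrps18a, chr17:46110804-46111033, plus strand: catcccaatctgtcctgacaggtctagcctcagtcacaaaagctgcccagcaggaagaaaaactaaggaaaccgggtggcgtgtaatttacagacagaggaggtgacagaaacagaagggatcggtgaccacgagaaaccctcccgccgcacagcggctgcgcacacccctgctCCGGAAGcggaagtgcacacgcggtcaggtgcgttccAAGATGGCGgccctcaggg
Mrpl39, chr16:84735215-84735444, minus strand: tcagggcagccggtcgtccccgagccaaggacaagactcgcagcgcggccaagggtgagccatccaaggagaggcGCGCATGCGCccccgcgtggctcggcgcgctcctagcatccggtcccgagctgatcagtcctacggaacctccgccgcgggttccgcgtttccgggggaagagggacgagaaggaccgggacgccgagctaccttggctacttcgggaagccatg

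Matches to ETS and YY1 words were more frequent in the 300-base promoter windows of these genes, which run from 250 bases before to 50 after the start site, than in those of all 17274 protein-coding genes in the table. NRF1, GABP (an ETS factor) and YY1 are known regulators of nuclear genes for mitochondrial proteins. Of the 69 genes 66 had a single start site, and a gene counted if any of its windows held the word. The ETS word was found at 26 of 69 genes (37.7%), against 13.1% of all genes and 24.0% of the 6164 genes with H3K4me3 in all 4 libraries. It was found at 36.4% of the 66 cytosolic ribosomal protein genes, a share next to that of the mitochondrial set. The YY1 word was found at 8 genes (11.6%, against 2.15% of all and 4.32% of those with H3K4me3), and the long NRF1 word at 3 (4.35%, against 1.49% and 2.94%). At least 1 of these 3 words was present at 35 of 69 genes (50.7%), against 15.9% of all genes. This joint share was not counted in the 2 closer groups. There the ETS word by itself was at 24.0% of genes with H3K4me3 in all 4 libraries and 36.4% of cytosolic ribosomal protein genes. The Sp1 word GGGCGG was found at 34 genes (49.3%), close to the 49.8% of all genes and below the 70.9% of genes with H3K4me3 in all 4 libraries. TATAAA was found at 5 (7.25%), against 14.9% of all genes and 7.27% of genes with H3K4me3 in all 4 libraries.

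**Figure D1:**
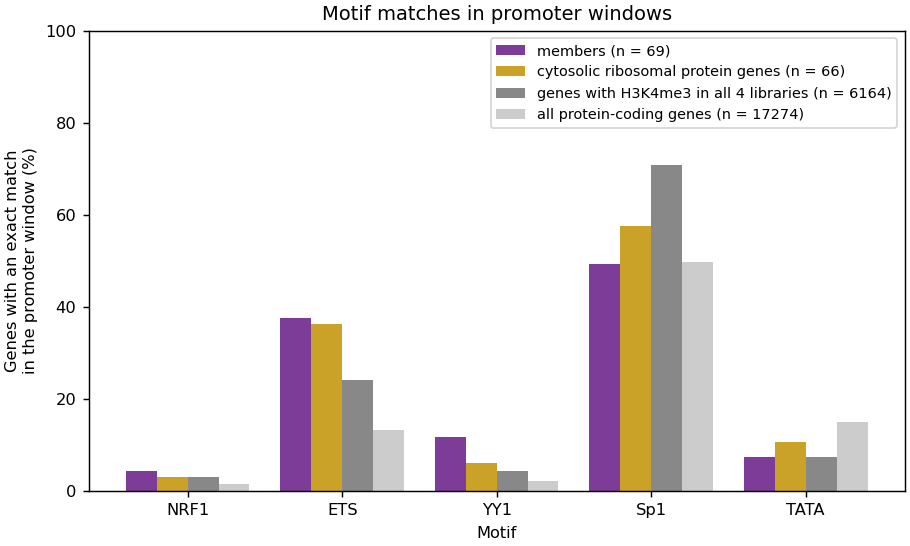
The y axis gives the percentage of genes with an exact match on either strand of a promoter window, and the x axis names the motif. Bars compare 69 mitochondrial ribosomal protein genes with 66 cytosolic ribosomal protein genes, 6164 genes with H3K4me3 in all 4 libraries and 17274 protein-coding genes. The ETS bars reach 37.7% and 36.4% in both ribosomal sets against 13.1% over all genes, and the Sp1 bar is lowest in the mitochondrial set (49.3%).

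The place of the matches was recorded only in the first listed window of each of the 69 genes. The 31 ETS matches had a median position 14 bases before the start site, 17 of them within the 100 bases before it, whereas the 8 YY1 matches had a median 22.5 bases after the start. In Mrps27 and Mrps18a the YY1 word reads AAGATGGCG just downstream of the start, as printed above. The windows held a median of 58% G and C and 21 CpG dinucleotides, against 56.3% and 13 over all genes and 61.3% and 22 over genes with H3K4me3 in all 4 libraries. These matches are a description of letters and do not show that a factor bound.

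The H3K4me3 libraries held 11319701 and 6185767 filtered fragments in WT and 5519477 and 5938102 in KO, and gave 17460, 16078, 10397 and 11281 peaks in WT replicates 1 and 2 and KO replicates 1 and 2. That order of libraries is kept below. The H3K4me1 libraries held 11604131 to 13627038 fragments and 53120 to 62065 peaks, and the MLL4 libraries 40 to 69 peaks. Where no peak is listed, the signal stayed under the authors' q cutoff of 0.01, which does not show that the mark was absent. Among 14 fibroblast markers 12 carried gene-end H3K4me3 in 1 or more libraries, and Pdgfra and Prrx1 had none. By library 12, 11, 7 and 7 of the 14 had such a peak, and 5 had it in all 4. With start sites added, Prrx1 had peaks in the WT libraries alone. Among 10 markers of blood, endothelial, epithelial, pluripotent, muscle and neural crest cells 2 did, Spi1 in the WT libraries and Epcam in 1 WT library. All peak lists of KO H3K4me3 were shorter, so the main values of the 78 genes are set beside those of all genes.

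Nearly every mitochondrial ribosomal protein gene carried H3K4me3 in both genotypes. A peak touched a gene end, extended by 1 kb on each side, at 74, 74, 68 and 71 of the 78 genes. The mean was 74 ± 0 (SD, n = 2) in WT and 69.5 ± 2.12 in KO, a difference of -4.5 genes, and the exact two-sided permutation test over the 4 libraries gave p = 0.333, the smallest p that 4 libraries split this way can give. In the same libraries 55.2%, 52.7%, 38.3% and 40.9% of all protein-coding genes had such a peak, against 94.9%, 94.9%, 87.2% and 91.0% of the 78.

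Of the 78 genes, 74 had a peak in at least 1 library, against 55.5% of all genes. Of those 74, 67 (90.5%) had one in all 4 libraries, where 63.1% of genes with any peak did. Peaks in both WT libraries and neither KO library were found at 2 of the 74 (2.70%), against 15.3% of genes with any peak. No gene of the set, and 0% of all genes, had peaks in both KO libraries alone. Without KO replicate 2 the number with peaks in WT libraries alone was 6. The remaining 5 genes lacked a peak in 1 KO library.

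Mrps26, a small subunit protein gene at chr2:130563757-130565394, had no KO peak at its gene ends, at its start site or over its whole length. Its peak spanned 1632 and 1328 bp in the WT libraries, with a pileup (the highest number of fragments stacked at a base) of 77 and 29 and a −log10 q of 51.4 and 14.0. Its promoter, printed above, holds an ETS and an Sp1 match and has no other protein-coding gene end within 1 kb.

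Mrps2 depended on where the gene is taken to begin. Its WT peaks at the gene ends were 248 and 326 bp long, but the listed start site lies 2115 bp inside the annotated span, and there the peaks were 798, 757, 332 and 410 bp. The same held for 3 of the 4 genes without any gene-end peak. Mrpl22, with its start site 1621 bp inside the span, had peaks of 603, 665, 265 and 316 bp there. Mrpl24 (1413 bp inside) had 1172, 1055, 753 and 442 bp. Mrps23 (10282 bp inside) had 1394 and 1301 bp in WT, none in KO replicate 1 and 1081 bp in KO replicate 2. The fourth, Mrpl4, had no listed start site and carried peaks within its body in all 4 libraries. Counting gene ends and start sites together, 77 of 78 genes had a peak, 70 of them (90.9%) in all 4 libraries, against 65.4% of all genes with such a peak in any library. Mrps26 was then the 1 gene with peaks in WT libraries alone, where 14.1% of genes with any such peak were. Scored at start sites alone, 2 of 69 genes (2.90%) had peaks in both WT libraries and in neither KO library, Mrps26 and Mrps18b. Of all genes with a start-site peak 13.5% did.

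The 5 genes that lacked a gene-end peak in 1 KO library were all named for the large subunit. KO replicate 1 had none at Mrpl44, Mrpl53, Mrpl36 and Mrpl39, and KO replicate 2 had none at Mrpl52. Mrpl44, which encodes a protein with an RNase III-like fold, had 1408 and 1230 bp in WT and 336 bp in KO replicate 2. Mrpl39, whose promoter holds the NRF1 word printed above, had 1350, 1308 and 978 bp where it had a peak. Mrpl53 had 1711, 1478 and 912 bp, Mrpl36 1842, 1807 and 1157 bp, and Mrpl52 1661, 1388 and 724 bp. Where a KO peak was present, it was shorter than both WT peaks at each of the 5.

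Where H3K4me3 was kept, it covered about as much less DNA in KO as at other genes. Length was the sum of the peaks touching a gene's ends. Over the 67 genes with peaks in all 4 libraries its median was 1509, 1362, 642 and 699 bp. Lengths ran from 691 to 2893 bp in WT replicate 1, 729 to 2824 bp in WT replicate 2, 284 to 1574 bp in KO replicate 1 and 271 to 1393 bp in KO replicate 2. The mean of the medians was 1435.5 ± 104 bp in WT and 670.5 ± 40.3 bp in KO (SD, n = 2), a log2 ratio of -1.10, with p = 0.333 in the exact permutation test. The medians over all 7567 genes with peaks in all 4 libraries were 1710, 1490, 687 and 772 bp.

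Peaks were shorter in both KO libraries than in both WT libraries at 64 of the 67 genes, beside 97.8% of all genes with peaks in all 4 libraries, and longer in both at 0, beside 0%. The WT and KO lengths overlapped at Mrps14, Mrpl20 and Mrpl42. The median ratio of KO to WT length was 0.495 over the 67 genes and 0.476 over all genes, so the set lay close to the whole. WT replicate 1 had the most fragments, and without it the log2 ratio was -1.02. The median pileup over all H3K4me3 peaks also differed, at 72, 39, 16 and 17 in the 4 libraries, and its part in the lengths was not tested.

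**Figure D2:**
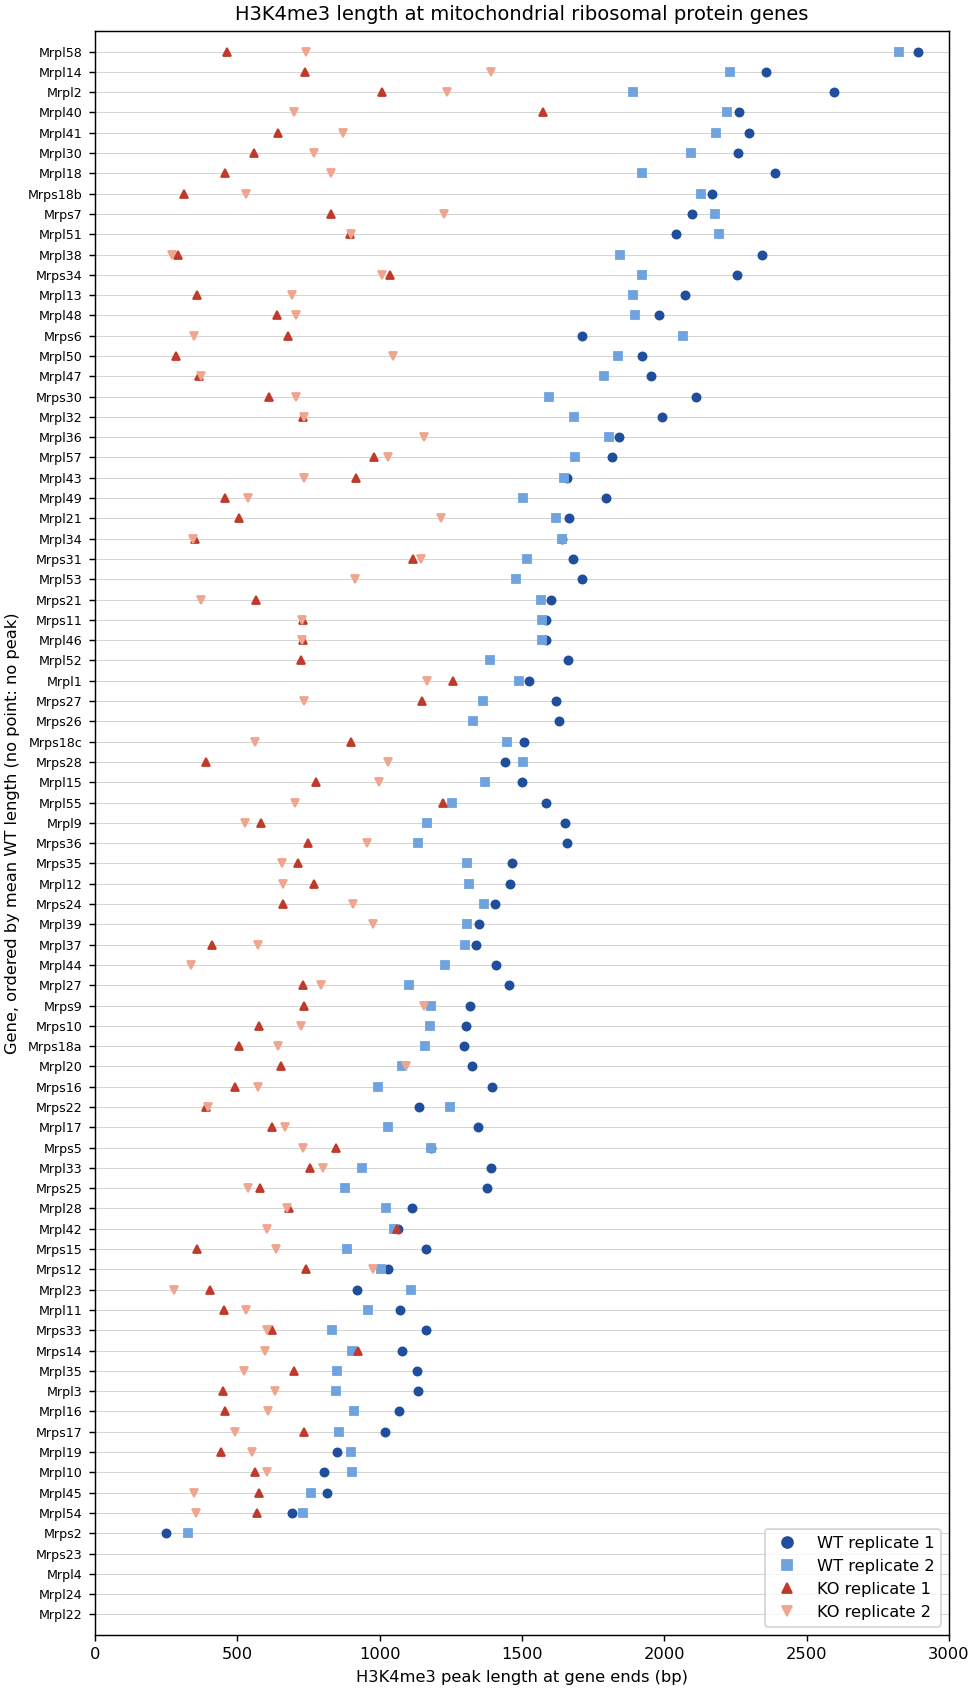
The x axis gives the H3K4me3 length in bp summed at the gene ends, and each row is 1 of the 78 genes, ordered by mean WT length. Each symbol is 1 library and a missing symbol is a missing peak. The KO symbols lie left of both WT symbols at 64 of the 67 genes with peaks in all 4 libraries.

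The small and large subunit genes lay close together in length. Of the 29 Mrps genes 26 had peaks in all 4 libraries, with medians of 1422, 1277.5, 696.5 and 682.5 bp. Of the 49 Mrpl genes 41 did, with medians of 1583, 1488, 622 and 699 bp. The median KO to WT ratio was 0.49 for the Mrps genes and 0.50 for the Mrpl genes. The names are historical, and the proteins of Mrps30 and Mrps18a sit in the large subunit. A symbol by itself does not place a protein in the ribosome.

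The 5 largest summed lengths in WT were at large subunit genes, 4 of them beside another gene. Mrpl58, for a peptidyl-tRNA hydrolase built into the large subunit, had 2893, 2824, 464 and 741 bp, in 2 peaks in each WT library, of which the one at the start site was 1151 and 1169 bp. Mrpl14 had 2357, 2230, 739 and 1393 bp and lay next to Tmem63b. Mrpl2, a protein of the peptidyl transferase region, had 2597, 1890, 1007 and 1237 bp, summed over 3 peaks in each WT library and 2 in each KO library, and lay next to Klc4. At its start site the length was 1556, 1119, 525 and 641 bp. The other 2 of the 5 longest were Mrpl40, beside Hira (2261, 2221, 1574 and 699 bp), and Mrpl41, beside Dph7 (2297, 2183, 642 and 873 bp). All 5 were shorter in each KO library than in each WT library.

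The 5 genes with the shortest H3K4me3 in WT were picked by the divisor of the KO to WT ratio. Their higher ratios can follow from that choice. Mrpl54, beside Apba3, had 691, 729, 568 and 355 bp. Mrpl45, which helps hold the ribosome at the inner membrane, had 814, 760, 576 and 348 bp. Mrpl10, of the stalk that meets translation factors and beside Lrrc46, had 804, 902, 563 and 604 bp. The KO to WT ratios of these genes were 0.650, 0.587 and 0.684, above the median of the set. Mrpl19 (849, 898, 442 and 550 bp) and Mrps17 (1019, 856, 734 and 492 bp) completed the 5 shortest, with ratios of 0.568 and 0.654.

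The ratio itself ran from 0.135 to 0.846. Mrps12, the decoding-centre protein, had the highest ratio, with 1029, 1005, 743 and 977 bp, and shares its promoter region with Sars2, the mitochondrial seryl-tRNA synthetase. Mrpl1 followed with 1525, 1488, 1257 and 1165 bp (0.804) and Mrpl42 with 1065, 1051, 1060 and 603 bp (0.786). At Mrpl42 the 2 KO libraries disagreed, and KO replicate 1 lay between the WT values. The lowest ratio was that of Mrpl38, beside Trim65, with 2343, 1845, 293 and 271 bp. Mrps18b, beside Ppp1r10 (2168, 2130, 312 and 532 bp; 0.196), and Mrpl47, beside the complex I gene Ndufb5 (1955, 1789, 367 and 371 bp; 0.197), came next. At Mrps18b the WT sum includes peaks of 1343 and 1391 bp at the start site, where neither KO library had a peak, so its ratio sets different peaks against each other.

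In the medians over genes, both edges of the peak lay closer to the start site region in KO and the summit differed little, while the summits of single genes differed both ways. This was measured at the 58 genes with a single listed start site and a peak there in all 4 libraries, for the peak with the highest pileup. The upstream edge had a median of -394.5, -338, 8.5 and -12 bp from the start site, a mean of -366 ± 40.0 in WT and -1.75 ± 14.5 in KO (SD, n = 2; exact permutation p = 0.333). The downstream edge had a median of 887, 811, 547.5 and 560.5 bp, a KO minus WT difference of -295 bp (exact permutation p = 0.333). The summit lay at 209.5, 200.5, 221.5 and 213.5 bp, a difference of 12.5 bp (exact permutation p = 0.333). The WT and KO medians did not overlap for any of the 3 measures, but the upstream edge differed by 364.5 bp and the summit by far less. Over all 5262 genes measured this way the edges differed in the same direction. Their upstream edge had a median of -444, -299, 45 and 35 bp and their downstream edge of 1124.5, 1022, 687 and 723.5 bp. Gene by gene, the mean KO summit lay within 100 bp of the mean WT summit at 31 of the 58 genes. It lay more than 100 bp downstream at 13 and more than 100 bp upstream at 14. These counts have no share over all genes beside them, so they do not set the 58 genes apart. Mrpl18 had summits at 91, 114, -857 and -1206 bp and Mrpl49 at 128, 332, -684 and -587 bp, the 2 largest differences, whereas those of Mrpl43 were 450 bp farther downstream in KO. These 3 genes were chosen after their values were seen. Each had another protein-coding gene end within 1 kb. Pnldc1 lay 765 bp from an end of Mrpl18, Syvn1 88 bp from one of Mrpl49 and Twnk 649 bp from one of Mrpl43. Which gene their KO peaks belong to was not tested.

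The start site itself was often outside the KO peak. The peak covered it in 51, 45, 22 and 23 of the 58 genes (87.9%, 77.6%, 37.9% and 39.7%). Over all 5262 genes measured this way the shares were 84.8%, 71.0%, 24.9% and 28.5%. At 39 cytosolic ribosomal protein genes they were 82.1%, 66.7%, 10.3% and 23.1%, with an upstream edge at -505, -468, 94 and 67 bp. The mitochondrial set had the highest share of the 3 groups in each library, a description without a test. Its summits lay nearer to the start site than those of all genes, which had medians of 282, 302, 326 and 329 bp.

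**Figure D3:**
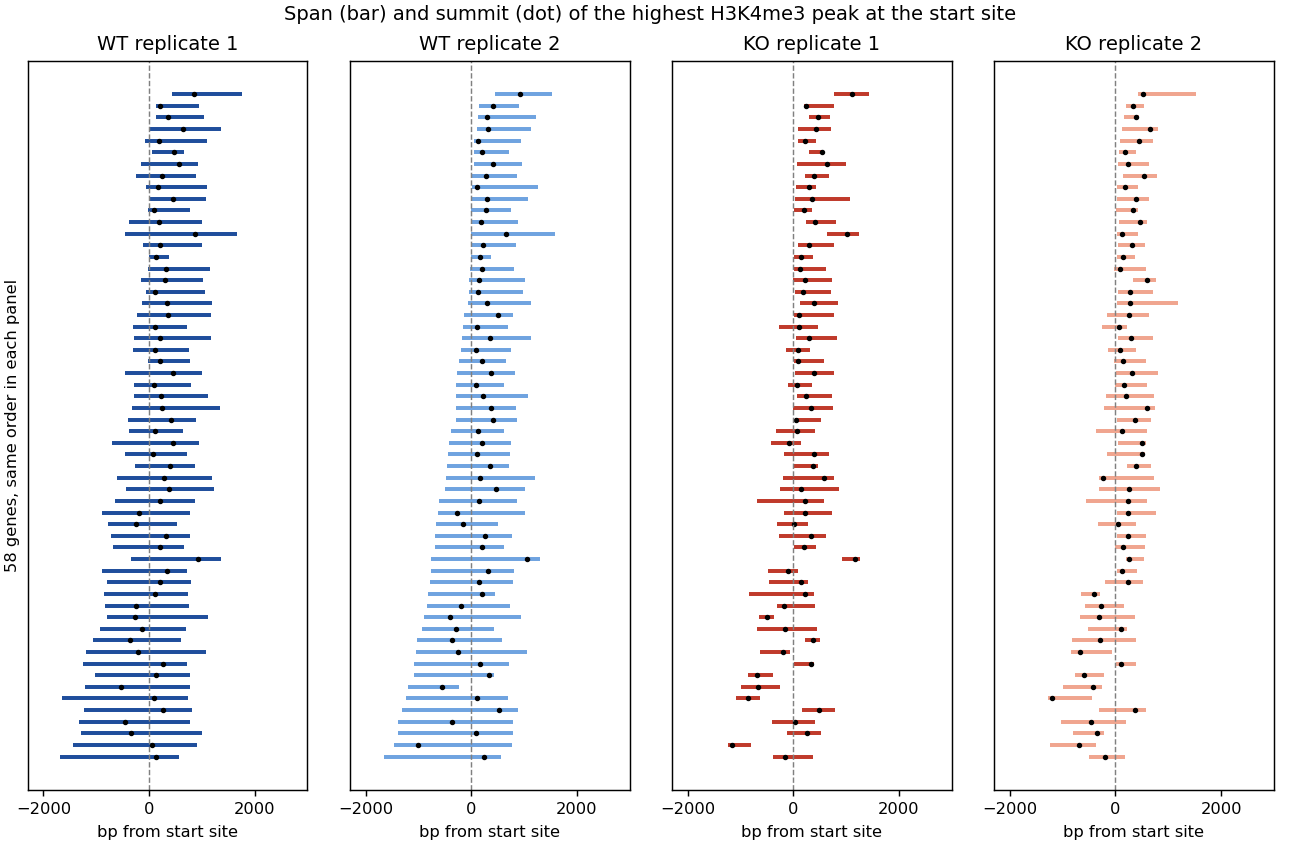
Each panel is 1 library, the x axis gives the distance in bp from the start site (positive downstream), and each row is 1 of 58 genes in the same order. Bars span the H3K4me3 peak with the highest pileup and dots mark its summit. The median summit lies between 200.5 and 221.5 bp while the median upstream edge goes from -394.5 and -338 bp in WT to 8.5 and -12 bp in KO.

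The peak at Mrpl34 was the exception in width. Its summed length was 1640, 1642, 353 and 344 bp, a ratio of 0.212, among the low values. The peak at its start site alone, however, was 379, 385, 353 and 344 bp wide, a ratio of 0.912 and the highest of the 58 genes. The other bases in WT lay in a further peak at the gene ends, next to Abhd8, that was not called in KO. Over the 58 genes the median width of the start-site peak was 1397.5, 1179, 621.5 and 639 bp and the median ratio 0.498, with Mrps6 lowest at 0.182.

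The height of the peaks was compared by rank, since raw pileup depends on each library's depth. Each gene's highest gene-end pileup was ranked as a percentile among the same 7567 genes in every library. The median percentile of the 67 genes was 43.4, 55.4, 36.1 and 61.0, with a mean of 49.4 ± 8.47 in WT and 48.5 ± 17.6 in KO (SD, n = 2). The difference of -0.862 percentile points was well inside the spread, with p = 1 in the exact permutation test, and it was 5.02 without KO replicate 1, 5.10 without WT replicate 2, -6.85 without WT replicate 1 and -14.0 without KO replicate 2. The 2 KO libraries differed from each other by more than the genotypes did, and KO pileups, with a median of 15 and 20, hold many ties.

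Both KO percentiles were below both WT ones at 12 of the 67 genes (beside 21.7% of the 7567 genes). Both were above at 14, beside 21.9% of the 7567, and 41 overlapped. The number below was 19 without WT replicate 1, 21 without KO replicate 1 and 31 without KO replicate 2, with fewer libraries to satisfy. These numbers stand without the share over the 7567 genes and without the number above, so they show no direction. Mrps27, a pentatricopeptide repeat protein, was among the 12 with 38.0, 60.4, 21.0 and 9.29. Mrps18a was among the 14 with 26.5, 34.9, 59.7 and 39.5, although both promoters printed above hold the ETS and YY1 words. The stalk genes Mrpl10 (81.0, 72.9, 66.7 and 61.0) and Mrpl11 (78.2, 79.2, 14.5 and 54.1) were lower in both KO libraries, while Mrpl12 (75.1, 55.4, 90.5 and 72.8) overlapped. Mean pileup on chromosome 10, relative to the other autosomes, was 0.981, 1.00, 1.20 and 1.24. Smaller shifts were seen on chromosomes 19 (1.15, 1.13, 1.01 and 1.03), 4 (0.878, 0.878, 0.812 and 0.813) and 16 (0.890, 0.876, 0.934 and 0.943). The set had 5, 4 and 3 genes on these. Mrpl42, 1 of 2 genes of the set on chromosome 10, was among the 14, and Mrpl11 lies on chromosome 19. Whether the shifts of chromosomes bear on the ranks was not tested.

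Of the genes with extreme ranks in WT, some held their place in KO. Mrpl34 ranked at 98.8, 99.3, 99.97 and 99.9, the highest of the set in WT, with the narrow start-site peak described above. Mrpl30, beside Mitd1, ranked at 88.6, 92.1, 36.1 and 86.0, so that KO replicate 1 stood apart. Mrpl1 ranked at 88.6, 91.1, 99.8 and 88.9. At the low end stood Mrpl23 (6.55, 2.23, 9.13 and 1.43), Mrpl33 (6.11, 3.13, 28.3 and 9.29) and Mrpl19 (7.02, 4.49, 36.1 and 46.9). Mrpl23 lay below the 10th percentile in all 4 libraries, whereas Mrpl33 and Mrpl19 were higher in both KO libraries than in both WT libraries. These genes were picked by their WT ranks, so KO ranks nearer the middle can follow from that choice.

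**Figure D4:**
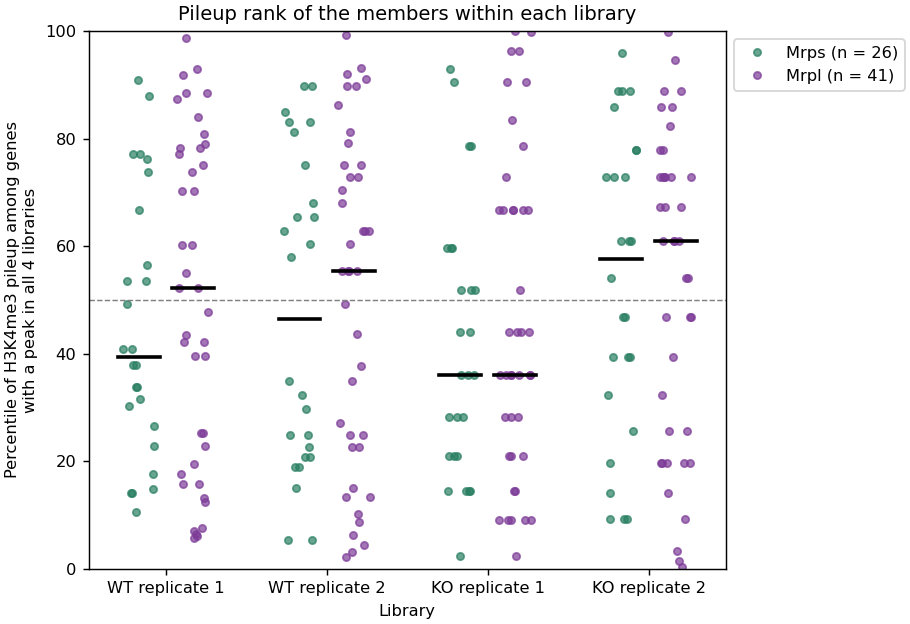
The y axis gives the percentile of each gene's H3K4me3 pileup among 7567 genes with a peak in all 4 libraries, and the x axis the library. Points are genes, 26 Mrps and 41 Mrpl, and black bars are medians. The points fill the whole range in every library, and the medians over both subunits are 43.4, 55.4, 36.1 and 61.0.

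A close neighbour was common in this set. Another protein-coding gene ended within 1 kb of 44 of the 78 genes (56.4%), against 25.1% of all protein-coding genes. The 38 of these with peaks in all 4 libraries had median lengths of 1688.5, 1644.5, 660.5 and 717 bp and median percentiles of 60.2, 61.6, 36.1 and 67.3. The 29 genes without a neighbour had 1347, 1136, 622 and 658 bp and percentiles of 30.3, 27.2, 44.0 and 46.9. The pileup of a shared peak cannot be divided between its genes.

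For the genes without a neighbour the median percentile was thus higher in both KO libraries, by 16.7 percentile points on average (exact permutation p = 0.333), where the 67 genes together had no stable direction. The same value was not computed for all genes without a neighbour, so it does not set these 29 genes apart. Their H3K4me3 was again shorter in KO, at 26 of the 29. Of all genes with peaks in all 4 libraries, with or without a neighbour, 97.8% were shorter.

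Mrpl46 and Mrps11, for a large and a small subunit protein, are the 1 pair of the set whose ends meet, 42 bp apart at chr7:78783089-78783131 and transcribed away from each other. A peak of 1583, 1570, 731 and 727 bp covered both, with a pileup of 124, 69, 13 and 26. From the start site of Mrps11, its upstream edge lay at -828, -828, -314 and -569 bp and its downstream edge at 754, 741, 416 and 157 bp. The sequence printed for Mrps11 holds the whole gap between both genes and an Sp1 match in it. Several other neighbours serve mitochondria, named here after their values were seen: Sars2 beside Mrps12, the complex I genes Ndufb5 and Ndufs6 beside Mrpl47 and Mrpl36, and the DNA helicase gene Twnk beside Mrpl43 (1660, 1647, 916 and 733 bp).

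Other genes of mitochondrial translation were near the ribosomal protein genes in these measures. Of 59 such genes, 46 had H3K4me3 in all 4 libraries, with median lengths of 1435.5, 1293.5, 688 and 803.5 bp and a median KO to WT ratio of 0.529. Among them were 4 of 5 ribosomal proteins with other symbols, 9 of 12 translation factors, 19 of 20 assembly and rRNA modification factors, 10 of 17 mitochondrial tRNA synthetases and 4 of 5 transcription genes. Dap3, a small subunit GTPase, had 1321, 1393 and 864 bp and no peak in KO replicate 1. The elongation factor gene Tufm had 1589, 1206, 799 and 1021 bp, and Tfam, for the factor that packages mitochondrial DNA, 1645, 1364, 797 and 681 bp. Of 85 cytosolic ribosomal protein genes 59 had peaks in all 4 libraries, with 1878, 1575, 778 and 826 bp and a ratio of 0.446.

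H3K4me1 was found at the gene ends of a minority of these genes, in a somewhat larger share than at all genes, and at few of them in all libraries. A gene-end peak was found at 14, 19, 17 and 14 of the 78 genes (17.9%, 24.4%, 21.8% and 17.9%), against 16.2%, 13.8%, 15.9% and 13.1% of all genes. The mean was 16.5 ± 3.54 in WT and 15.5 ± 2.12 in KO (SD, n = 2), a difference of -1 with an exact permutation p of 1, which became 1.5 without WT replicate 2 and 0.5 without KO replicate 2. Of 85 cytosolic ribosomal protein genes 20, 19, 18 and 16 had a gene-end peak, and 42 had one in at least 1 library. Scored over the whole gene, the shares were 43.6%, 44.9%, 38.5% and 37.2% of the 78 genes. Over all genes they were 47.5%, 44.0%, 44.8% and 41.7%. At the gene ends, 35 of the 78 genes had a peak in at least 1 library (44.9%, against 28.1% of all genes). Of these 35 genes 19 had it in 1 library, 8 in 2, 3 in 3 and 5 in all 4.

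Peaks in all 4 libraries were thus found at 14.3% of the 35 genes, against 18.2% of all genes with an H3K4me1 peak. Peaks in both WT libraries alone were found at 2 (5.71%, against 6.31%), Mrps28 with 297 and 627 bp and Mrpl16, a protein of the peptidyl transferase region, with 365 and 431 bp. Peaks in both KO libraries alone were found at 0, against 5.19% of all genes with an H3K4me1 peak. The peaks were low within their libraries, with median percentiles of 25.9, 15.4, 21.3 and 26.8 in the peak list. The 28 genes with any other combination of libraries outnumbered these groups together. Without WT replicate 1 or WT replicate 2, 8 and 5 genes had peaks in the remaining WT library alone, and without KO replicate 1 or KO replicate 2, 3 and 7 had them in the KO library alone.

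The 5 genes with H3K4me1 in all 4 libraries were Mrpl17, Mrps12, Mrpl58, Mrpl52 and Mrpl41. Their median length was 486, 544, 595 and 453 bp, a log2 ratio of 0.014 with an exact permutation p of 1, and it was negative with any 1 library left out. Mrpl17 had the longest, at 1208, 1586, 1565 and 1302 bp with a pileup of 31, 31, 26 and 24. It lay at the 3′ end of the gene, apart from the H3K4me3 at the start. At Mrpl52 the peak (433, 392, 595 and 392 bp) was also at the 3′ end, with summits 3328, 3100, 2989 and 3106 bp from the start site.

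At Mrps12 the H3K4me1 peak was upstream, with summits at -857, -648, -1020 and -1025 bp and lengths of 891, 514, 368 and 453 bp. Mrpl58 had 280, 544, 692 and 626 bp and Mrpl41 486, 698, 367 and 257 bp. Of the 5 genes 2 had shorter H3K4me1 in both KO libraries, beside 25.9% of the genes with H3K4me1 in all 4 libraries, and 1 had longer, beside 15%. At Mrpl58, the longer one, different peaks were summed: the summit was 8864 bp from the start site in WT replicate 1 and 1070 bp in WT replicate 2, and each KO library had 2 peaks. At Mrpl41, a shorter one, the WT peaks did not overlap each other. So few genes allow no statement on direction.

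**Figure D5:**
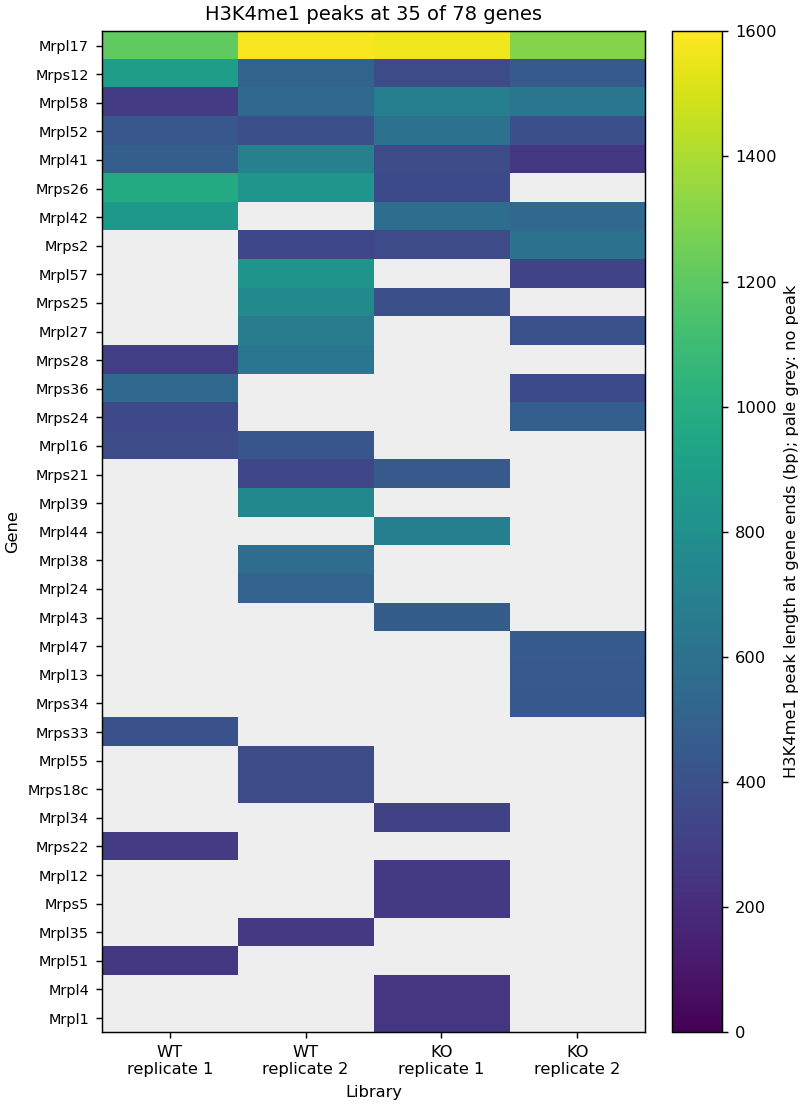
Rows are the 35 of 78 genes with gene-end H3K4me1 in any library, columns are the 4 H3K4me1 libraries, and colour gives the summed peak length in bp, with pale grey for no peak. The top 5 rows, with Mrpl17 the longest at 1208 to 1586 bp, are filled in all 4 columns, and 19 rows are filled in 1.

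H3K4me1 summits lay more often downstream than upstream of the start site, and several of these peaks overlapped a WT H3K4me3 peak. Where a start site was listed, the H3K4me1 summits lay a median of 1225, 1208, 1020 and 1725 bp from it, 11, 11, 10 and 10 of them downstream and 3, 6, 7 and 3 upstream. These are distances in either direction for peaks at either gene end. The H3K4me3 summits given above came from peaks at the start site, so the distances of the marks cannot be compared. The 15, 19, 18 and 15 peaks overlapped a WT H3K4me3 peak in 8, 12, 11 and 7 cases and a KO H3K4me3 peak in 5, 4, 2 and 3. Over all gene-end H3K4me1 peaks 34.7% to 39.6% overlapped WT H3K4me3 and 13.3% to 14.6% KO H3K4me3. Libraries of the marks are separate samples, so an overlap does not place both marks on the same nucleosome.

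By contrast with H3K4me1, H3K4me3 was tied to the 5′ end. Of the 69 genes with a known strand, 58, 58, 56 and 56 had H3K4me3 at the 5′ end alone, 0, 0, 1 and 1 at the 3′ end alone and 8, 8, 3 and 6 at both. H3K4me1 was at the 5′ end alone in 7, 13, 12 and 7 genes, at the 3′ end alone in 4, 4, 3 and 5, and at both in 2, 0, 1 and 0.

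MLL4 was not found at these genes. No MLL4 peak lay at a gene end, or within the gene and 10 kb around it, at any of the 78 genes in any of the 4 MLL4 libraries. The lists of 60, 69, 49 and 40 MLL4 peaks reached a gene end of 13, 14, 1 and 0 protein-coding genes, so their depth allowed few such genes anywhere.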

How the data were processed

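Peak lists of 12 Cut & Run libraries were used, 2 per antibody (MLL4, H3K4me1, H3K4me3) and genotype. Per the file headers, peaks were called in each library alone with MACS2 2.1.0.20150731 on paired-end fragments, without a control library, at a q cutoff of 0.01 and with a local background over 10000 bp. The headers keep up to 2 duplicates in WT H3K4me3 replicate 1 and in H3K4me1, and 1 elsewhere. Reads were on mm10, with Bowtie2, SAMtools 1.5, bedtools, deepTools and HOMER 4.10 named in the submitters' processing notes. For each peak the authors deposited the pileup signal at the summit, the −log10 p and −log10 q, and the fold enrichment over background. These are the caller's own values and depend on depth. The lists give no replicate error within a peak.

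Genes were taken from RefSeq GRCm38.p6, the mm10 assembly. A gene had a peak if at least 1 bp touched either gene end extended by 1 kb. Length summed the touching peaks, and pileup was ranked within the 7567 genes with H3K4me3 in all 4 libraries. Libraries were compared with exact two-sided permutation tests, which cannot go below p = 0.333 with 2 against 2. Counts of genes had no test. Most stand beside the same share of all genes, but those under alternative settings and those of summit differences do not. Python 3.11.15, numpy 2.4.6 and scipy 1.17.1 were used, and the gene scoring was tested on simulated data. Members named with values were those in 1 genotype, without peaks, with H3K4me1 throughout, the 5 longest and shortest, and the 3 most extreme ranks and ratios. Others were chosen after their values were seen: those with promoters shown, the stalk genes, those missing in 1 library, and Mrpl43. The members, gene lists and motifs were chosen with earlier results of these data known. Alternatives varied the window (500 bp, 2 kb, whole gene, start site), the q cutoff, the overlap, the list size, the replicates and the ranked value.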

Additional observations from a re-analysis of the deposited data

How the results depend on the processing

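The count of genes with H3K4me3 kept its direction under all alternatives run (-48.5 to -2 genes, the former with −log10 q raised to 10), and so did the log2 length ratio (-1.17 to -0.94). No exact permutation test could fall below p = 0.333. The rank difference had no stable direction: it was 0.20 at the start site, 0.74 with fold enrichment ranked, 16.7 without genes sharing an end, and -14.0 to 5.10 with 1 library left out. The H3K4me1 count difference was 0.5 with a 200 bp overlap and -3.5 to 1.5 with 1 library left out. The H3K4me1 log2 length was -0.27 with 2 kb, -0.30 over the whole gene, -0.48 at the start site, -0.28 with equal lists, -0.055 with gene ends and start sites (added after seeing the data), and -0.441 to -0.067 with 1 library left out. It had no value at 500 bp or at a −log10 q of at least 5 or 10, with 2, 1 and 0 genes. Genes with H3K4me3 in WT libraries alone numbered 1 over the whole gene, with equal lists, with start sites added and without shared ends, 7 and 35 at a −log10 q of at least 5 and 10, and 2 to 6 with 1 library left out, the 6 without KO replicate 2. For H3K4me1 they numbered 8 with 2 kb, 5 over the whole gene, 1 at the start site, at a −log10 q of 5 or 10, with equal lists and with 200 bp, and 2 to 8 with 1 library left out, the 8 without WT replicate 1. Genes with H3K4me1 in KO libraries alone numbered 1 with 2 kb and with 200 bp and 1 to 7 with 1 library left out, the 7 without KO replicate 2. Shorter H3K4me3 in KO held for 10 genes with −log10 q raised to 10, for 26 without shared ends, and for 64 to 70 with 1 library left out. Lower ranks in KO held for 3 genes under each of those settings and for 18 to 31 with 1 library left out, given without the share over all genes or the number of higher ranks. The cause of these differences was not tested, beyond the fewer genes that strict cutoffs leave.

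Same-numbered libraries did not deviate together (correlations of -0.0208 to 0.0136 over genes). This does not show if they were prepared together, which the labels leave unsaid. With the replicate number as a block the differences were the same, -4.5 genes, a log2 ratio of -1.10, a rank difference of -0.862, -1 gene for H3K4me1 and a log2 ratio of 0.014 for its length. The exact p was 0.5 for the first and second and 1 for the others, and 0.5 is the smallest a blocked test of 4 libraries can give. Precision is limited by 2 libraries a group and by KO pileups of 8 to 44.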

Other observations

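The length order of the 67 genes with H3K4me3 in all 4 libraries was shared by the WT libraries more than by the KO libraries. The correlation of log2 length across these genes was 0.906 between the WT libraries and 0.443 between the KO libraries, and 0.0469 to 0.366 between a WT and a KO library. For pileup it was 0.837 between the WT libraries, 0.514 between the KO libraries and 0.416 to 0.786 across genotypes. The genes share promoters and their libraries differ in depth, so these values describe the 4 libraries and carry no p-value.

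H3K4me3 lengths were also set out by motif match. The 21 genes with an ETS match and peaks in all 4 libraries had median lengths of 1603, 1449, 621 and 707 bp, and the 38 without one 1491.5, 1277.5, 680 and 700.5 bp. The 7 genes with a YY1 match had 1339, 1300, 698 and 642 bp, and the 52 without one 1583, 1381, 641 and 704.5 bp. The 33 genes with an Sp1 match had 1583, 1449, 734 and 707 bp, and the 26 without one 1457, 1172.5, 575.5 and 667 bp. These differences were not tested.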
